A study of Rattus norvegicus with 69 samples.

Results

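Sleep deprivation by the platform method also exposes an animal to a new place, so deprived animals were set against animals free to sleep in that place. The comparison holds 14 of the 69 hippocampal CA1 arrays of the series, 1 array for each animal: 8 rats deprived of sleep for 72 hours (72SD) and 6 rats kept for 72 hours under the stress of a new environment (72NES), all in cohort 1. All were male rats of the strain Fisher 344 (spelled Fischer 344 in the study's methods), 3 to 5 months old per those methods. The 72SD rats lived on small platforms over water, the study's way of depriving them of sleep. The 72NES rats lived in the same chambers for the same time, but a rubberized grid lay over the platforms and they were free to sleep. Pairs of cage mates were held in 1 chamber, and the pairs are not labelled, so every animal is counted as independent in the tests. The methods name the sleep-deprived and home cage (HC) animals of cohort 1 as trained on an active avoidance task beforehand. They do not name the animals under new environment stress. They report that training had no noted effect on the microarray measures, without showing the data. In this comparison training and sleep loss cannot be told apart. The rest of cohort 1 places the values and shares in the estimate of the spread behind each standard error and p: 5 HC rats, 8 rats deprived for 24 hours (24SD) and 10 rats kept in the new environment for 24 hours (24NES).

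CA1 is the output field of the hippocampus proper, where pyramidal neurons receive glutamate input from CA3 and the entorhinal cortex. Waking for long periods is known to alter mRNA of synaptic proteins, chaperones, clock genes and energy metabolism in the forebrain. An unfamiliar place raises corticosterone, which acts in CA1 through the mineralocorticoid and glucocorticoid receptors and induces genes of its own. The question put to the data was therefore which mRNA signals differ between animals that shared the place and the time but not the freedom to sleep. The methods describe no recording of sleep in either group.

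Every value is a log2 hybridization signal, and every difference is the mean of the 8 72SD arrays minus the mean of the 6 72NES arrays on that scale, with its standard error (SE) from limma. The tests covered 7006 probe sets (a probe set is the group of probes that reports 1 transcript) with 1 gene symbol, for 4736 genes. The sample is a tissue block, so fewer cells of a type and less RNA per cell cannot be told apart. Of 11 CA1 pyramidal cell markers 6 were measured, among them Nrgn, a calmodulin-binding protein of forebrain neurons, with a mean signal of 14.72, while Wfs1 and Fibcd1 were not analysed here. The 14 arrays had median signals of 400.5 to 478.4, and the lowest belonged to 72NES array 71. That array also had the highest 3′ to 5′ signal ratios of the 14, a measure of RNA integrity that rises as RNA breaks down: 1.76 for beta actin and 1.26 for GAPDH. The beta actin ratio averaged 1.23 ± 0.11 (SD, n = 8) in 72SD and 1.28 ± 0.29 (SD, n = 6) in 72NES (two-sided exact permutation p = 0.689). Results are therefore given with array 71 and without it, and its part in them was not tested.

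No gene passed the adjusted test. At a Benjamini-Hochberg adjusted p under 0.05 in limma, 0 of 7006 probe sets (0%) differed between 72SD and 72NES, and the smallest adjusted p was 0.258. At an unadjusted p under 0.05 there were 518 probe sets (7.39%) for 467 genes, 328 of them higher in 72SD (4.68%) and 190 lower (2.71%), with a median size of 0.42. The test of the study's methods, a 1-way analysis of variance run on the linear signals, had 0 at an adjusted p under 0.05 and 424 at an unadjusted p of 0.05 or less. With values over 2 SD from their group mean removed, as those methods do, it had 544 and 2 passed: Vip, a peptide of interneurons (adjusted p = 0.0257), and Ier5, an immediate early gene (adjusted p = 0.0302), each after the loss of 1 72SD value. The larger share of higher signals in limma went with array 71. Without it 308 probe sets (4.4%) remained at p under 0.05, 146 higher (2.08%) and 162 lower (2.31%), and 235 of the 518 were still at p under 0.05 with the same sign. Array 71 had the lowest of the 6 72NES signals in 217 of the 328 higher probe sets (66.2%), against 1914 of all 7006 (27.3%).

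**Figure D1:**
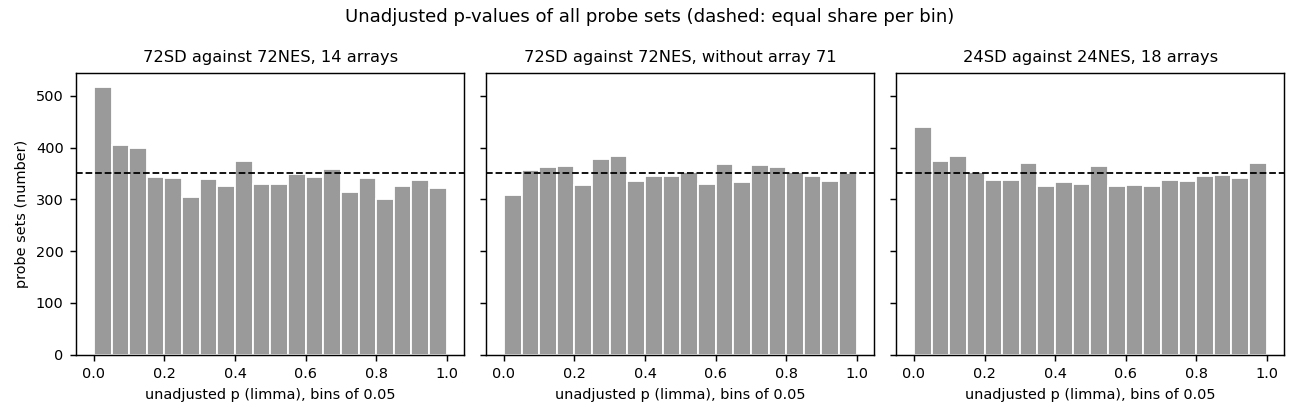
Number of probe sets (vertical axis) in bins of the unadjusted p (horizontal axis) for 72SD against 72NES with 14 arrays, the same without 72NES array 71, and 24SD against 24NES. The dashed line is the count that equal shares in all bins would give; the bin nearest 0 stands above it with array 71 (518 probe sets at p under 0.05 of 7006) and falls to 308 without that array.

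The precision limits what could be found. With the probe sets parted by signal into 3 classes of equal size, the median SE of a difference was 0.12 in the brightest class, 0.17 in the middle and 0.37 in the dimmest. The 95% interval in the brightest class reached a median of 0.23 to each side. It is an interval for 1 probe set without adjustment, so larger differences than this can fail the adjusted test. Each array had been scaled to 1 level, and the median difference over all 7006 probe sets was -0.0041.

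The groups were almost always interleaved. In 6 probe sets (0.0856%) no 72SD array overlapped a 72NES array, 5 of them higher in 72SD (0.0714%) and 1 lower (0.0143%). The 5 were 2 probe sets of Map2, a microtubule protein of dendrites, and 1 each of Tgfb3, a secreted growth factor, Dgkg, a diacylglycerol kinase, and Ank2, an ankyrin that ties membrane proteins to spectrin. The Ank2 signal was 7.47 to 8.64 in 72SD and 5.44 to 7.38 in 72NES. The 1 lower was Ddx4, a germ cell helicase, at 1.00 to 2.83 in 72SD and 2.85 to 4.14 in 72NES, signals close to the bottom of the scale.

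Among the 10 genes leading on the higher side, 4 are known for the shape and traffic of neurons. Map2 (probe set S74265_s_at) had the smallest p of all. Its signal was 8.27, 8.63 and 8.96 (lowest, median and highest) in 72SD and 5.78, 7.73 and 8.06 in 72NES. Every 72SD array lay above every 72NES array, and 72NES array 71 lay far below the rest of its group. The difference was 1.15 ± 0.25 (unadjusted p = 3.69e-05, limma adjusted p = 0.258), and 0.82 without array 71 (p = 0.000188). Dnm1l, the dynamin-related GTPase that divides mitochondria (AF020211_s_at), had 10.49, 10.75 and 11.12 in 72SD and 9.20, 10.29 and 10.65 in 72NES. The 72NES low of 9.20 was array 71, and the ranges overlapped. The difference was 0.64 ± 0.16 (p = 0.000363), and 0.45 without that array. Cadm1, a synaptic adhesion molecule (AA933181_at), had 10.25, 10.48 and 10.94 in 72SD and 9.30, 10.04 and 10.53 in 72NES, with ranges that overlapped, a difference of 0.54 ± 0.15 (p = 0.000753) and 0.46 without array 71. Ap2a2, a subunit of the adaptor that gathers cargo into clathrin-coated pits (X53773_at), had 10.76, 10.94 and 11.05 in 72SD and 10.35, 10.54 and 10.81 in 72NES. Its ranges met only at their edges, and the difference was 0.34 ± 0.095 (p = 0.001).

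A group of 4 genes acts in signalling. Crhbp, a secreted protein that binds and buffers corticotropin-releasing hormone (AF003904mRNA_g_at), had 9.49, 9.81 and 10.13 in 72SD and 9.14, 9.34 and 9.60 in 72NES. The groups overlapped only between 9.49 and 9.60, and array 71, at 9.23, did not stand apart. The difference was 0.47 ± 0.12 (p = 0.000295, limma adjusted p = 0.391), and 0.45 without array 71. Tgfb3 (U03491_at) had 9.71, 9.87 and 10.28 in 72SD and 9.44, 9.48 and 9.65 in 72NES, with no overlap, a difference of 0.43 ± 0.11 (p = 0.000446) and 0.42 without array 71. The other 2 handle diacylglycerol, a lipid second messenger. Dgkg, which converts it to phosphatidic acid (rc_AI233421_s_at), had 10.73, 10.91 and 11.18 in 72SD and 8.60, 10.50 and 10.71 in 72NES. Prkca, a protein kinase C that it activates (X07286cds_s_at), had 8.43, 8.98 and 9.37 in 72SD and 6.42, 8.36 and 8.90 in 72NES. Array 71 was the lowest for both, for Dgkg by a wide margin, while for Prkca array 69 was low too, at 7.18, and the others were 8.25 to 8.90. Without array 71 the Dgkg difference went from 0.71 ± 0.19 to 0.39 and that of Prkca from 0.95 ± 0.25 to 0.64.

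The last 2 of the higher genes belong to fuel metabolism. Gyg1, the glycogenin that primes glycogen (L01793_at), had 10.97, 11.44 and 11.71 in 72SD and 10.22, 11.03 and 11.18 in 72NES. The ranges overlapped between 10.97 and 11.18, and the 72NES low was array 71. The difference was 0.50 ± 0.12 (p = 0.000218) and 0.36 without that array. Apoc1, a small apolipoprotein made by astrocytes in brain (X15512_at), had 11.60, 11.83 and 11.89 in 72SD and 11.34, 11.53 and 11.64 in 72NES. The overlap was 11.60 to 11.64. The difference of 0.29 ± 0.072 (p = 0.000308) was 0.30 without array 71.

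On the lower side, 3 of the 10 leading genes are of vessel wall or extracellular matrix. Mmp14, a membrane-bound matrix metalloproteinase (X83537_at), had 8.32, 8.79 and 9.06 in 72SD and 8.99, 9.20 and 9.81 in 72NES, where the high was array 71. The ranges overlapped between 8.99 and 9.06. The difference was -0.51 ± 0.13 (p = 0.000395, limma adjusted p = 0.391) and -0.41 without array 71. Gja5, the connexin 40 of arterial endothelium (AF022136_at), had 5.97, 6.52 and 7.49 in 72SD and 6.42, 7.86 and 8.18 in 72NES. A single 72NES array, at 6.42, lay among the 72SD arrays, and the others began at 7.65. The difference was -1.06 ± 0.31 (p = 0.00131), on a dim probe set. Ptgis, prostacyclin synthase (U53855_at), had 6.49, 6.87 and 7.17 in 72SD and 7.07, 7.93 and 8.09 in 72NES, a difference of -0.89 ± 0.27 (p = 0.00179) and of -0.83 without array 71.

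A further 4 act in the actin cytoskeleton or in vesicle tethering. Myl6, a light chain of non-muscle myosin (rc_AA894200_at), had 10.06, 10.30 and 10.50 in 72SD and 10.35, 10.75 and 10.88 in 72NES. All but 1 of the 72NES arrays lay at 10.72 or more, above every 72SD array. The difference was -0.41 ± 0.11 (p = 0.000385). Cdc42, a small GTPase that organizes actin (rc_AI227887_g_at), had 11.87, 12.18 and 12.49 in 72SD and 12.25, 12.54 and 12.81 in 72NES, a difference of -0.37 ± 0.10 (p = 0.000977). Trappc3, a subunit of the complex that tethers vesicles at the Golgi (U47316_s_at), had 9.45, 10.23 and 10.52 in 72SD and 9.93, 11.37 and 12.03 in 72NES. Its 72NES range was wide, with array 71 at the top, and the difference went from -0.93 ± 0.28 (p = 0.00193) to -0.75 without array 71. Vps33a, of the complex that tethers endosomes to lysosomes (U35244_g_at), had 10.72, 11.35 and 11.43 in 72SD and 11.14, 11.76 and 12.20 in 72NES, a difference of -0.52 ± 0.16 (p = 0.00214).

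The other 3 lower genes were Auh, Cyp3a9 and Ier5. Auh, an RNA-binding mitochondrial enzyme of leucine breakdown (rc_AA859688_at), had 12.81, 12.89 and 13.10 in 72SD and 12.97, 13.13 and 13.39 in 72NES, and its difference was the smallest of the 20, -0.22 ± 0.062 (p = 0.000871). Cyp3a9, a cytochrome P450 of steroid and drug oxidation (U46118_at), had 8.32, 8.78 and 9.13 in 72SD and 8.95, 9.16 and 9.36 in 72NES, a difference of -0.40 ± 0.12 (p = 0.00251). Ier5, induced early by growth factors and stress (rc_AA800604_at), had 5.75, 6.09 and 6.81 in 72SD and 6.62, 7.25 and 7.36 in 72NES. Its groups overlapped only between 6.62 and 6.81, and the difference was -1.02 ± 0.29 (p = 0.00118) and -0.98 without array 71.

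**Figure D2:**
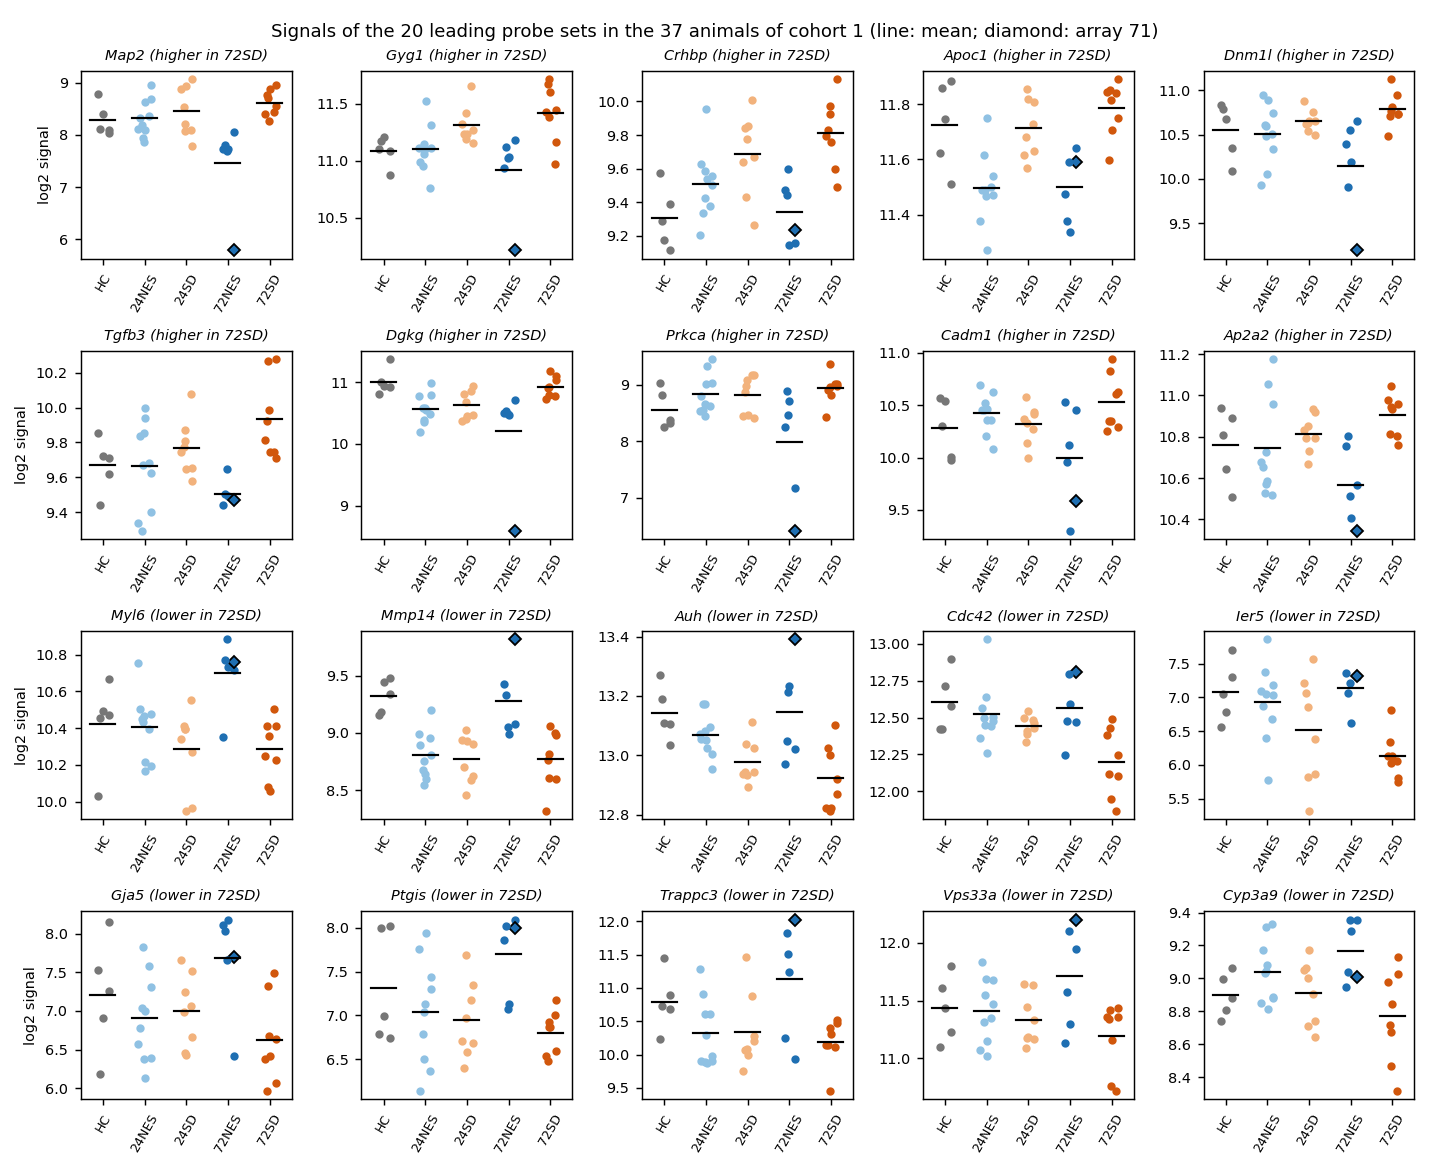
log2 signal (vertical axis of each panel) of the 20 leading probe sets on each array of HC, 24SD, 72SD, 24NES and 72NES in cohort 1 (horizontal axis); points are animals, bars are group means and the diamond is 72NES array 71. The diamond lies at the bottom of the 72NES points for Map2, Gyg1, Dnm1l, Dgkg, Prkca and Ap2a2, and within them for Crhbp, Apoc1 and Tgfb3.

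These 20 were picked for a small p in this contrast, so their sizes are a description and their adjusted p-values, 0.258 to 0.602, did not pass. All 20 kept their sign and stayed at p under 0.05 without array 71 (largest p 0.0127). Array 71 was the lowest 72NES array for 6 of the 10 higher genes and the highest for 5 of the 10 lower ones.

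Other probe sets for the same genes gave a further reading of the same arrays. For Map2, X17682_s_at differed by 0.70 (p = 0.0029) with no overlap of the groups and X53455cds_s_at by 0.48 (p = 0.0303, and 0.25, p = 0.21, without array 71). By contrast U30938_at, the brightest Map2 probe set with a mean signal of 13.52 in cohort 1, differed by 0.14 (p = 0.138). The leading Map2 probe set was the dimmest, at 8.27. The fifth Map2 probe set, rc_AI228850_s_at, differed by 0.40 with array 71 and by -0.014 without it. All 3 probe sets of Gyg1 were higher in 72SD at p under 0.05 (0.50, 0.29 and 0.29), as were both of Tgfb3 (0.43 and 0.58) and both of Crhbp (0.47 and 0.33). Dnm1l was less even, with 0.64, 0.47, 0.31 and 0.04 over its 4 probe sets, of which the second and the third went to 0.28 (p = 0.0746) and 0.14 (p = 0.353) without array 71. All 4 Cdc42 probe sets were lower in 72SD, by 0.20 to 0.37, and 2 of them at p under 0.05. For Gja5 (-1.06, -0.35 and -0.01), Vps33a (-0.52, -0.14 and -0.03), Ier5 (-1.02 and -0.14) and Dgkg (0.71 and -0.03) the leading probe set stood alone at p under 0.05. That of Ier5 was dim, with a mean signal of 6.72 in cohort 1, and the other Ier5 probe set was brighter, at 9.10 (p = 0.695 in limma). Over the whole array 1565 genes have several probe sets, and 46 of them had at least 2 at p under 0.05, 44 with 1 sign. The 2 of mixed sign were Canx, an endoplasmic reticulum chaperone (-0.47 and 0.36 for rc_AI010725_at and L18889_at), and Errfi1, a feedback inhibitor of the EGF receptor (-1.27 and 0.81 for M23572_at and X07266cds_s_at).

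Set beside the home cage, the leading genes lay on both sides of it. For 8 of the 10 higher genes the 72SD mean was above the HC mean and the 72NES mean below it, and for 8 of the 10 lower genes the reverse held. So it did for 224 of the 328 higher and 151 of the 190 lower probe sets at p under 0.05, against 1007 and 1143 of all 7006, and the selection by the 72 hour values enters these counts. Both differences share the 5 HC arrays. Map2 was 0.33 above HC in 72SD and 0.82 below in 72NES, which came to 0.49 below without array 71 (differences of 0.33, -0.82 and -0.49). Crhbp was 0.51 above HC in 72SD and 0.03 above in 72NES. For Mmp14 the 72SD mean differed from HC by -0.55 and the 72NES mean by -0.04. Over all genes, neither 72SD nor 72NES differed from HC at an adjusted p under 0.05 in limma in any probe set (0%), with 470 (6.71%) and 469 (6.69%) at an unadjusted p under 0.05.

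In the same contrast after 24 hours, too, the methods name the sleep-deprived animals alone as trained. This contrast was made on other animals, 8 24SD and 10 24NES, so it shares no array with that at 72 hours. It had 1 probe set at an adjusted p under 0.05 (0.0143%), for Sult1a1, a phenol sulfotransferase induced by glucocorticoids, and 439 at an unadjusted p under 0.05 (6.27%). Sult1a1 (L19998_g_at) was 0.63 higher in 24SD than in 24NES (limma adjusted p = 0.00948) and 0.29 ± 0.12 higher in 72SD than in 72NES (p = 0.0268, adjusted p = 0.669). Its signal at 72 hours was 10.35, 10.89 and 11.05 in 72SD against 10.28, 10.54 and 10.86 in 72NES, so the ranges overlapped for most of their length. Of the 518 probe sets at p under 0.05 after 72 hours, 317 (61.2%) had the same sign after 24 hours, against 53.2% of all 7006. Across the 7006 probe sets, which are not independent replicates, the 72 hour and 24 hour differences had a correlation of r = 0.087, and of 0.10 without array 71.

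Of the 20 leading genes 16 had the same sign after 24 hours, but their differences were small there. Apoc1 was the only 1 of the 20 at p under 0.05 at both durations, 0.29 after 72 hours and 0.22 after 24 hours (p = 0.0014). The difference was 0.13 for Map2, 0.05 for Dgkg, -0.02 for Prkca and 0.10 for Gja5 after 24 hours. The change of the difference with duration was at an unadjusted p under 0.05 for 14 of the 20, against 373 of all 7006 (5.32%), but the selection of these genes by the 72 hour values enters that count. No probe set passed the adjusted test of the change with duration in limma (0%).

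**Figure D3:**
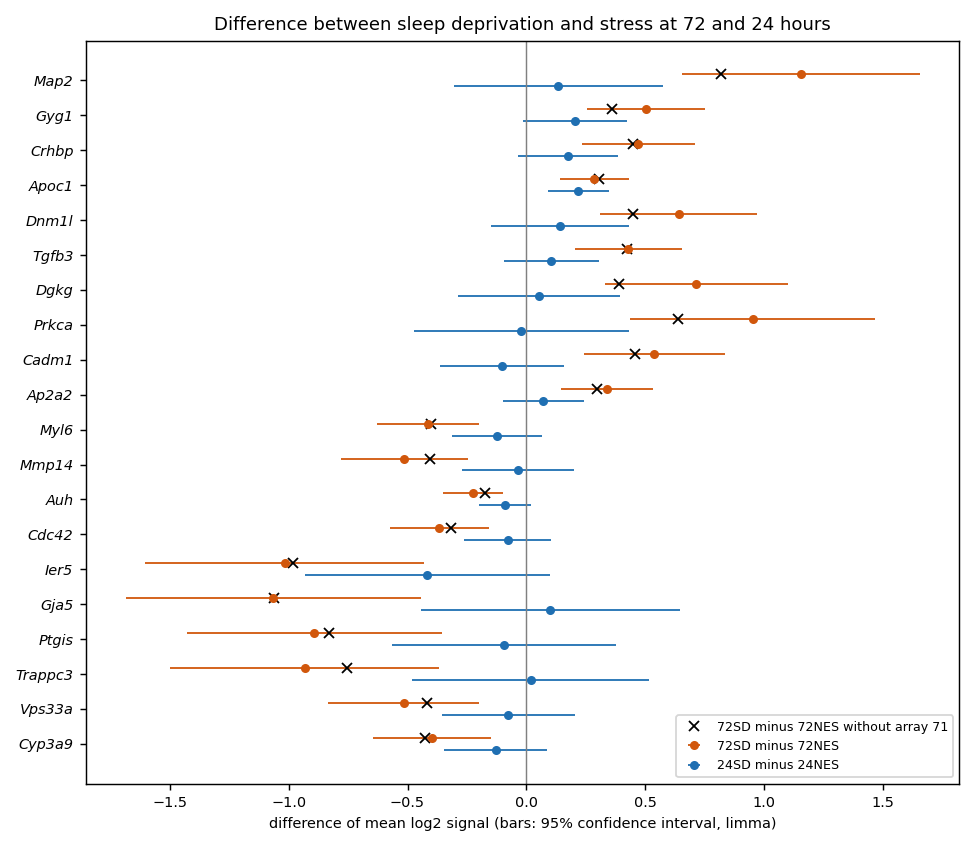
Difference in mean log2 signal (horizontal axis) of 72SD minus 72NES and of 24SD minus 24NES for the 20 leading genes, with 95% intervals as bars; crosses mark the 72 hour difference without array 71. The 24 hour values gather near 0, from -0.42 for Ier5 to 0.22 for Apoc1, while the 72 hour values run from -1.06 to 1.15.

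Both durations had 23 probe sets at p under 0.05 with 1 sign and 5 with opposite signs. Of the 328 higher after 72 hours 16 were at p under 0.05 after 24 hours, and of the 190 lower 12. Among all 7006 probe sets 439 (6.27%) were, so the share of the 518 was no larger than that of all. That share leaves the direction aside. The genes named here are a description, and repetition across durations was not tested. Glul, the glutamine synthetase of astrocytes, was among the 23 with 2 of its probe sets. The first, rc_AA852004_s_at, was higher by 0.36 after 72 hours and 0.24 after 24 hours, and the second, rc_AI232783_s_at, by 0.23 and 0.27. Its other probe sets had 0.23 (p = 0.122) and 0.01 (p = 0.913) after 72 hours in limma, and 0.21 and 0.24 after 24 hours. Gpd1, the glycerol-3-phosphate dehydrogenase induced by glucocorticoids in glia, was higher by 0.99 ± 0.36 after 72 hours (p = 0.00972) and 0.96 after 24 hours (p = 0.00456). Its signal was 9.27, 9.97 and 10.38 in 72SD and 7.86, 9.01 and 9.81 in 72NES, with an overlap from 9.27 to 9.81. Aldoc, a brain aldolase of astrocytes, had 0.28 and 0.27 on 1 of its probe sets. Pvalb, the calcium buffer of fast-spiking interneurons, had 0.23 and 0.19, and Fkbp4, a co-chaperone of steroid receptors, 0.28 and 0.31 on 1 of its probe sets. On the lower side were Acat1, a mitochondrial thiolase (-0.24 and -0.18), Ifitm3, an interferon-induced membrane protein (-0.28 and -0.25), S100a4, a calcium-binding protein of motile cells (-0.29 and -0.22), and Arpc1b, of the complex that branches actin (-0.21 and -0.30). Without array 71, 10 of the 23 were still at p under 0.05 after 72 hours. Gpd1 (p = 0.0445), the first Glul probe set (0.0386), Pvalb (0.0379), Acat1 (0.0101) and S100a4 (0.0388) were, but the second Glul probe set (0.0948), Aldoc (0.0869), Fkbp4 (0.0708), Ifitm3 (0.0552), Arpc1b (0.0694) and Sult1a1 (0.0513) were not.

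Sleep loss without a stress control was measured again in cohort 2, where 12 72SD animals were compared with 12 HC animals. That is another comparison, since the controls there were not in the chambers. In limma it had 0 probe sets at an adjusted p under 0.05 (0%) and 440 at an unadjusted p under 0.05 (6.28%). Of the 20 leading genes 6 had the same sign in it and 3 were at p under 0.05: Mmp14 at -0.29 (p = 0.0316), Ier5 at -0.54 (p = 0.0499) and, with the sign turned, Trappc3 at 0.36 (p = 0.0483). Of the 518 probe sets 215 (41.5%) had the same sign, against 50.1% of all. Gpd1 was higher there by 0.88 and Sult1a1 by 0.49.

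The 22 lists of genes by function and 13 of cell type markers were described by counts, beside 7.39% of all probe sets at p under 0.05 and the median difference of -0.0041. No member of any list passed the adjusted test in limma. The steroid receptor axis had 7 of 25 probe sets at p under 0.05, all higher in 72SD, with a median of 0.14 (4 at p under 0.05 and a median of 0.11 without array 71). Besides Crhbp these included Hsp90ab1, the HSP90 that holds steroid receptors ready for hormone (0.59 ± 0.20, p = 0.00644, and 0.36 without array 71), Stip1, which links HSP70 to HSP90 (0.27 ± 0.11, p = 0.0176), and Fkbp4 (0.43, p = 0.0197, and 0.25, p = 0.131, without array 71). The other Hsp90ab1 probe sets, all brighter, differed by 0.23 (p = 0.0298), 0.14 (p = 0.134) and 0.05 (p = 0.586) in limma. Crhbp, Hsp90ab1 and Fkbp4 each gave more than 1 of the 7, so the 7 stand for fewer genes. After 24 hours the median of the axis was -0.0058. The glucocorticoid-induced genes had 9 of 33, 8 higher and 1 lower, with a median of 0.097. Without array 71 there were 6, and the median was 0.092. Glul and Gpd1 were among the 8, and the 1 lower was a dim Errfi1 probe set.

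Synaptic genes had more higher than lower members at p under 0.05 after 72 hours, as had all probe sets (328 higher and 190 lower). The list of glutamate receptors and the postsynaptic scaffold had 10 of 86 at p under 0.05, all higher, and a median of 0.10 (6 at p under 0.05 and a median of 0.062 without array 71). Homer3, a scaffold of metabotropic receptors (AB020879_at), had 8.42, 9.20 and 9.49 in 72SD and 7.79, 8.56 and 9.19 in 72NES. Its ranges overlapped, and the difference of 0.58 ± 0.17 (p = 0.00138) was 0.43 without array 71. Dlg1 and Dlg2, scaffold proteins of the PSD-95 family, differed by 0.64 and 0.66 (0.56 and, at p = 0.0779, 0.36 without array 71), and Gria4, an AMPA receptor subunit, by 0.42 (0.32). The list of presynaptic vesicle release had 12 of 74, 10 higher and 2 lower, but only 2 without array 71. Nsf, the ATPase that takes apart used SNARE complexes, went from 0.74 to 0.35 on 1 probe set (AF089839_at) when that array was left out. Unc13c, a priming factor (rc_AA943677_at), was on the other side, at 6.01, 7.02 and 7.55 in 72SD and 7.35, 7.65 and 7.88 in 72NES, a difference of -0.65 ± 0.24 (p = 0.0105) and -0.70 without array 71. Of the GABA-A receptor and GABA synthesis genes 6 of 30 were at p under 0.05, 5 of them higher. The higher ones were led by Gabra2 (0.39 ± 0.14, p = 0.00685), Gabra5 (0.49 and 0.21 on 2 probe sets) and Gabrb1 (0.25), subunits of the receptor, and all 4 values kept p under 0.05 without array 71. The median of this list was 0.035. After 24 hours the medians were -0.077 for the glutamate receptor list, -0.00056 for presynaptic release and -0.029 for the GABA list. Relative to HC, the presynaptic median was -0.066 in 72SD and -0.13 in 72NES, and -0.089 in 72SD of cohort 2. That of the glutamate receptor list was 0.035, -0.071 and, in cohort 2, -0.019.

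Chaperones and growth factors followed. Endoplasmic reticulum chaperones had 8 of 32, 6 higher and 2 lower, with a median of 0.078, and 3 without array 71. P4hb, a disulfide isomerase, went from 0.56 ± 0.18 to 0.29 without array 71, and Hsp90b1, the HSP90 of this compartment, from 0.38 to 0.15. Both lower probe sets were of Canx. Cytosolic and mitochondrial heat shock proteins had 7 of 40, 4 higher and 3 lower, with a median of 0.018, and 3 without array 71. Neurotrophins and growth factor receptors had 11 of 71, 10 of them higher, with a median of 0.022 (6 at p under 0.05 and a median of -0.031 without array 71). Vegfa, the endothelial growth factor, differed by 0.48 ± 0.15 (M32167_g_at, p = 0.00341) and 0.43 without array 71. Igfbp2, which binds insulin-like growth factors and is also a marker of choroid plexus, differed by 0.76 ± 0.28 (A09811cds_s_at, p = 0.0107).

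The clock, activity and metabolic lists held fewer leading members. Of 17 clock probe sets 3 were at p under 0.05, and 1 without array 71. Nr1d1, the REV-ERB alpha repressor of the clock (M25804_g_at), had 10.38, 10.67 and 10.98 in 72SD and 10.70, 11.05 and 11.08 in 72NES, a difference of -0.33 ± 0.11 (p = 0.00647) and -0.31 without array 71, and 0.05 after 24 hours. Tef went from 0.35 to 0.09 without array 71, and Bhlhe41 differed by -0.18. Immediate early genes had 4 of 62: Junb (0.26), Jun (0.28) and Crem (1.32) were higher and Fosl2 (-0.36) was lower. Fosl2 had the other sign after 24 hours, 0.38 (p = 0.0105). Glycolysis and glycogen genes had 6 of 46, all higher, but 1 without array 71, and the median was 0.02. Ribosomal proteins had 2 of 55, oxidative phosphorylation subunits 3 of 61, translation factors 2 of 30 and RNA binding proteins 1 of 45, and without array 71 these were 1, 1, 0 and 0 in limma. The remaining lists, of neuropeptides, axon guidance, cholesterol, antioxidant, ion pump, potassium channel and proteasome genes, had medians from -0.0088 to 0.074. The sign of the near-zero medians of the neuropeptides, of oxidative phosphorylation and of the oligodendrocyte markers turned under other scalings of the arrays.

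**Figure D4:**
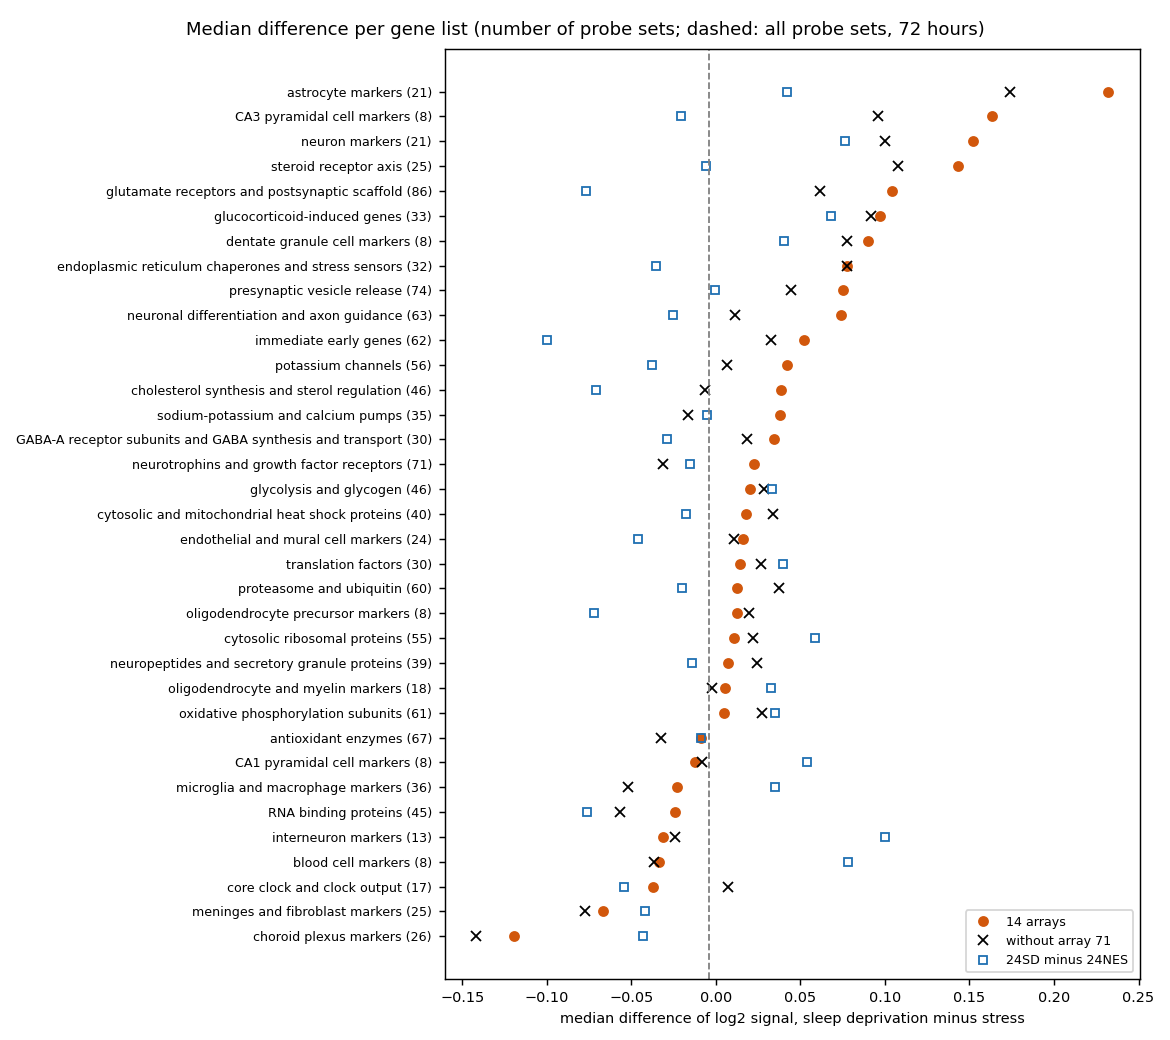
Median difference in log2 signal (72SD minus 72NES, horizontal axis) of each list of genes, with all 14 arrays and without 72NES array 71; the line marks the median of all 7006 probe sets. Astrocyte markers lie farthest to the right at 0.23 (0.17 without array 71) and choroid plexus markers farthest to the left at -0.12 (-0.14).

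Markers of cell types were read beside these results. Astrocyte markers had 7 of 21 probe sets at p under 0.05, all higher in 72SD, 18 of 21 above 0 and a median of 0.23, which was 0.17 without array 71, with 3 at p under 0.05. Slc1a3, the glutamate transporter GLAST (S75687_s_at), had 12.11, 12.43 and 12.70 in 72SD and 9.99, 12.07 and 12.37 in 72NES, where the low was array 71. The difference of 0.65 ± 0.21 (p = 0.00368) became 0.29 without it (p = 0.0269). Slc1a2, the transporter GLT-1, differed by 0.33 and by 0.29 without array 71. The 2 astrocyte probe sets of highest mean signal, of Aldoc and S100b, differed by 0.09 and -0.05. Neuron markers had 6 of 21, all higher, and a median of 0.15 (4 at p under 0.05 and a median of 0.10 without array 71), with Snap25 at 0.72 (0.62) and Syt1 at 0.63 (0.21) beside Map2. Map2 and Snap25 each gave more than 1 of the 6. The other Snap25 probe sets, all brighter, differed by 0.39 (p = 0.0331), 0.15 (p = 0.244) and -0.18 (p = 0.247) in limma. The 2 neuron markers of highest mean signal, Thy1 and Uchl1, differed by 0.02 each.

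The summed signals of the marker lists overlapped between the groups. On the log2 scale the astrocyte sum ran from 17.41 to 17.54 in 72SD and from 17.24 to 17.49 in 72NES, and the neuron sum from 17.70 to 17.97 and from 17.68 to 17.87. The lowest astrocyte sum was that of array 71. CA1 pyramidal cell markers had 1 of 8 probe sets at p under 0.05, Htr1a, the serotonin 1A receptor, at 0.38, and a median of -0.012. Markers of CA3 and of the dentate gyrus, neighbours of CA1 in a dissected block, had 0 of 8 each at p under 0.05 in limma, with medians of 0.16 and 0.09. Choroid plexus markers had 1 of 26 and a median of -0.12, with sums of 13.45 to 13.66 in 72SD and 13.56 to 13.94 in 72NES. Interneuron markers had 4 of 13, 2 in each direction. Vip, found in interneurons that inhibit other interneurons (X02341cds_at), had 8.29, 8.88 and 9.08 in 72SD and 8.17, 8.43 and 8.50 in 72NES, a difference of 0.45 ± 0.15 (p = 0.00364) and 0.43 without array 71. Pvalb was higher (0.23), and Sst (-0.24) and Slc32a1, the vesicular GABA transporter (-0.22), were lower. Oligodendrocyte markers had 2 of 18, both of Mobp, microglia and macrophage markers 2 of 36, meninges and fibroblast markers 2 of 25, and precursor, endothelial and blood cell markers 0 at p under 0.05 in limma. The part of cell makeup in the differences above was not tested.

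Signals often tied to lost sleep were read in the same contrast. Homer1, whose short form is induced by waking activity, had 6 probe sets with differences from 0.04 to 0.26 and a smallest p of 0.115. The largest (AB007688_s_at) was 0.26 ± 0.16 with a 95% interval from -0.068 to 0.59, and it was -0.28 after 24 hours (p = 0.056). All 6 Homer1 probe sets were lower in 24SD than in 24NES, with differences from -0.33 to -0.02. The smallest p of these was 0.0176 in limma (AF093268_s_at, adjusted p = 0.664). Per2, a clock gene that rises with time awake in cortex, differed by 0.23 ± 0.16 (p = 0.157, interval -0.092 to 0.55). Both groups had a higher mean than HC, by 0.70 in 72SD and 0.47 in 72NES. Cirbp, a cold-inducible RNA-binding protein, differed by -0.17 ± 0.12 (p = 0.161, interval -0.42 to 0.072), with means of -0.57 and -0.39 relative to HC. Sgk1, a kinase induced by glucocorticoids, differed by 0.20 ± 0.17 (p = 0.246, interval -0.14 to 0.54), with 0.57 and 0.37 relative to HC. For these 3 genes both groups lay on 1 side of HC, and the intervals of the difference between the groups include 0 but also values larger than their estimates. After 24 hours the difference was -0.38 for Cirbp (p = 0.000926, limma adjusted p = 0.418, interval -0.60 to -0.17). It was -0.15 for Per2 (p = 0.3) and 0.29 for Sgk1 (p = 0.059). S100a1, a calcium sensor, had 4 probe sets from -0.19 to -0.05 with a smallest p of 0.0688. Fkbp4 had 0.43, 0.28 and 0.06 on its 3 probe sets. Ednrb and Chga were not analysed here.

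The arrays fell into sets by the beta actin ratio that no label names. At a value of 1.2, chosen after the ratios were seen, 4 72SD arrays (1.29 to 1.39) and 3 72NES arrays (1.33 to 1.76, with array 71) lay above, and 4 72SD arrays (1.09 to 1.17) and 3 72NES arrays (0.988 to 1.12) below. In a limma fit of the 14 arrays, 10 probe sets (0.143%) differed between these sets at an adjusted p under 0.05 and 991 (14.1%) at an unadjusted p under 0.05. Since both sets hold both groups, the contrast was also taken within each. All 20 leading genes had the same sign in both sets, as had 320 of the 328 higher and 183 of the 190 lower probe sets at p under 0.05, against 3560 of all 7006. All of these were picked on the same 14 arrays, which enters the counts. Map2 differed by 1.50 among the arrays of higher ratio and by 0.81 among those of lower ratio, Crhbp by 0.51 and 0.44, Tgfb3 by 0.42 and 0.43, Myl6 by -0.37 and -0.46 and Gja5 by -1.03 and -1.10. Some were uneven: Prkca had 1.53 and 0.37, Dgkg 1.08 and 0.35, Trappc3 -0.37 and -1.49, and Cyp3a9 -0.11 and -0.68. The median of the astrocyte markers was 0.28 and 0.12, and that of the neuron markers 0.16 and 0.14. The median of the steroid receptor axis was 0.21 and -0.011, and that of the glutamate receptor list 0.20 and -0.0026, above 0 in the arrays of higher ratio alone. The part of RNA integrity in these values was not tested.

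**Figure D5:**
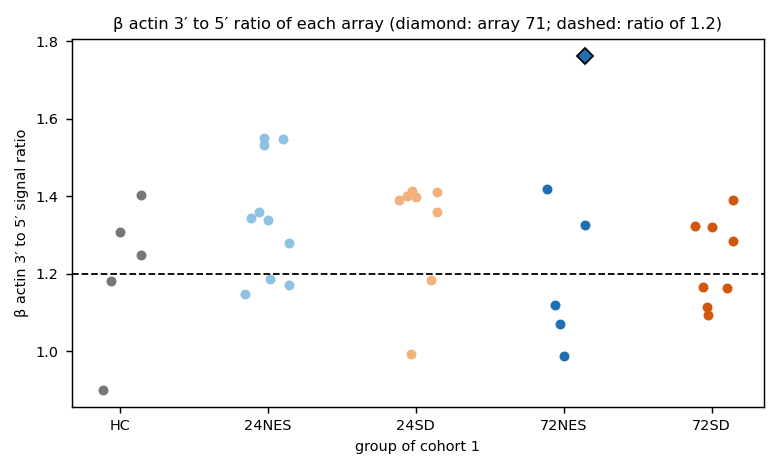
Beta actin 3′ to 5′ signal ratio (vertical axis, linear) of each array by group in cohort 1 (horizontal axis); the dashed line is the value of 1.2 that parts the sets and the diamond is 72NES array 71. Both groups have arrays on each side of the line, and array 71, at 1.76, lies highest of the 72NES arrays.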

How the data were processed

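CA1 total RNA of each rat was hybridized to 1 Affymetrix rat array by the authors. The deposited intensity values are MAS5 signals (version not given in the sources used here), with linear values for every probe set. Every array had been brought by the authors to a trimmed mean of 1500, while the study's methods give a lower target intensity. The table holds 8799 probe sets: 59 controls, 7006 with 1 gene symbol, 308 with several and 1426 with none here, and 99.7% of the 7006 matched the RefSeq gene table. No value tested was 0, and no pair of arrays was identical (highest r between arrays 0.997).

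Signals were set to at least 1 and taken to log2. Group means of the 37 cohort 1 arrays (5 HC, 8 24SD, 8 72SD, 10 24NES, 6 72NES) were fitted with limma 3.58.1 in R 4.3.3 (lmFit, eBayes with a trend, 32 residual degrees of freedom), with Benjamini-Hochberg adjustment over the 7006 probe sets and a threshold of 0.05. Cohort 2 (12 HC, 8 24SD, 12 72SD) was fitted separately. The 3′ to 5′ ratios came from control probe sets, and group means of array measures were compared with two-sided exact permutation tests. The scripts were tested on simulated data. The plots used matplotlib 3.10.9, pandas 2.3.3 and numpy 2.4.6 under Python 3.11.15.

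The rule for naming genes was as follows. Since none passed, the text names the 10 higher and 10 lower genes with the smallest unadjusted p, 1 probe set for each gene, with their other probe sets. It also names 2 to 4 members of smallest p in each list described, the 2 members of highest mean signal in each marker list, and genes the study names as sleep or stress signals. Genes of the groups that did not overlap, of both durations and of the methods' test were added with their values in view. The members and lists were chosen with earlier results of these data known. Gene lists were described by counts and medians, with no test. Alternatives were other scalings (quantile, centring), a floor of 50, the upper 50% of signals, every probe set, other priors, array weights, fewer arrays in the fit, the methods' analysis of variance, and each array left out. Those for the beta actin ratio (a term, a covariate, each set alone) and for 24NES array 58 were chosen after seeing the data. Replicates are separate animals. The number of arrays limits the precision. Detection calls, hormone and protein data are not used here.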

Additional observations from a re-analysis of the deposited data

Results flagged for a closer look

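In groups of 4 to 10 arrays, a lowest or highest value was marked when its gap to the next exceeded the 95% critical value of Dixon's test for a group of that size. Of 118 groups tested (each named probe set and array measure in 72SD and in 72NES), 15 (12.7%) were marked. Chance alone marks about 1 in 20 groups that were not selected. Most of the probe sets here were picked for a small p on these arrays or belong to the same genes. The rate over all probe sets is not given, so no excess over chance can be read from the 15. Values are log2 signals except for the median signal of an array, which is linear, and causes were not tested.

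Of the 15, 5 were of 72NES array 71. Its median signal was 400.5 against 452.8 to 475.5 on the other 72NES arrays. For Map2 it had 5.78 (others 7.69 to 8.06) on S74265_s_at and 8.75 (others 11.12 to 11.35) on rc_AI228850_s_at. For Gyg1 it had 10.22 (others 10.94 to 11.18) and for Dgkg 8.60 (others 10.46 to 10.71).

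Other 72NES arrays stood apart for single probe sets. Tgfb3 was 9.65 on array 73 (others 9.44 to 9.50), and Myl6 10.35 on array 70 (others 10.72 to 10.88). Gja5 was 6.42 on array 69 (others 7.65 to 8.18) on its leading probe set, but 7.16 on the same array, above the others at 5.83 to 6.17, on M76535cds_g_at. Array 68 was low for Cdc42 on rc_AA925473_at, at 12.54 (others 12.87 to 12.96), and for Vps33a on U35244_at, at 9.37 (others 10.02 to 10.36). S100a1 on S68809_s_at was 11.24 on array 70 (others 11.54 to 11.69).

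In 72SD, array 41 was low for Trappc3, at 9.45 (others 10.11 to 10.52), and for Gyg1 on U96130_at, at 10.42 (others 10.84 to 11.20). Array 38 was low for Map2 on rc_AI228850_s_at, at 10.65 (others 11.09 to 11.43).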

How the results depend on the processing

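No paired analysis was possible because the groups share no replicate numbers. Without array 71 of 72NES, the count at p under 0.05 for 72SD against 72NES was 308, and over all arrays left out in turn it ran from 308 to 643. It was 180 in the upper 50% of signals with 1 probe set for each gene (fewer probe sets tested) and 335 in the arrays of higher beta actin ratio alone (fewer arrays). The adjusted count was 0 in limma under every alternative, and 2 (Vip and Ier5) in the methods' analysis of variance with values over 2 SD removed. For 24SD against 24NES it was 3 with every probe set and 2 with array weights, and 1 to 2 with arrays left out. For 72SD against HC in cohort 2 it was 0 to 1 with arrays left out. The cause of these shifts was not tested.

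The split of 328 higher and 190 lower was 314 and 208 after quantile normalization and 323 and 199 after centring, but 204 and 210 with array weights, 218 and 206 in the analysis of variance, 262 and 282 with removal, 174 and 193 without arrays 58 and 71, 169 and 202 with a term for the actin set and no array 71, and 246 and 325 in the arrays of lower ratio. The 20 leading genes kept their direction in all 610 limma values computed, with adjusted p from 0.114 to 0.987. In the analysis of variance with removal, Ier5 had an adjusted p of 0.0302.

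Signs turned in 31 of 1630 values, on 9 probe sets, none of them among the 20 leading. Vps33a rc_AA900601_at was 0.045 after quantile normalization and S100a1 rc_AI228548_at 0.0095 with array weights. Without arrays 58 and 71, Map2 rc_AI228850_s_at was -0.014, Dgkg D38448_at 0.013 and Fkbp4 rc_AI231547_at -0.0021. With the actin term and no array 71, Map2 was -0.011, Fkbp4 -0.0061 and S100a1 0.012 on these probe sets. With arrays left out in turn, the ranges were -0.16 to 0.15 (Vps33a rc_AA900601_at), -0.27 to 0.039 (Vps33a U35244_at), -0.13 to 0.052 (S100a1), -0.038 to 0.12 (Dnm1l AF019043_at), -0.0025 to 0.083 (Homer1 AB017140_g_at), -0.069 to 0.063 (Gja5 M76535cds_at), -0.12 to 0.060 (Dgkg), -0.014 to 0.51 (Map2) and -0.0021 to 0.12 (Fkbp4).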

Other observations

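Some other list members had these differences between 72SD and 72NES, and none passed the adjusted test in limma. Prdx6, a peroxiredoxin rich in astrocytes, was higher in 72SD by 0.31 and 0.38 on 2 of its 3 probe sets, and by 0.22 and 0.30 without array 71, while the other had 0.18 (p = 0.0891). Mobp, a myelin protein with 4 probe sets, was higher by 0.31 on D28111_at (0.28 without array 71) and by 0.52 on D28110_g_at (0.24), and had 0.12 and 0.16 on the others. Apoe, the main apolipoprotein of brain, was higher by 0.21 and by 0.20 without array 71. Mgst1, a glutathione transferase of membranes, differed by -0.37 (-0.38 without array 71), and Ube2b, an enzyme that passes on ubiquitin, by -0.27 (-0.32).

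Of the potassium channels, Kcna2 differed by 1.34 and by 1.52 without array 71, on a dim probe set with signals of 4.72 to 6.76 in 72SD and 3.51 to 6.01 in 72NES, and by -0.65 after 24 hours. Dpysl3, a protein of growth cones, differed by 1.60 with and without array 71, also on a dim probe set.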
